A study of Mus musculus with 8 samples.

Results

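The meningeal fibroblast and matrix genes are 35 genes listed by name, and all 35 were found among the 22609 gene rows of the deposited table. They encode fibrillar collagens, the small proteoglycans that coat collagen fibrils, other secreted matrix proteins, and the growth factors, retinoic acid proteins, transporters and transcription factors of the fibroblasts in the membranes around the brain. The samples were pieces of medial prefrontal cortex from both hemispheres, taken at the anterior cingulate subregion, of B6.SJL mice aged 3 months, with total RNA sequenced. In the group Contextual fear conditioning (n = 4), mice explored a chamber for 3 min, received 2 foot shocks of 0.8 mA lasting 2 s and 30 s apart, and remained there for 15 s. In the group Context control exposure (n = 4), mice had the same handling and chamber with no shock, and tissue of both groups was taken 1 h after training. The series design text calls the samples biological replicates.

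The meninges are the membranes that enclose the brain. Their innermost layer, the pia, lies on the cortical surface and follows larger vessels inward, and its fibroblasts secrete fibrillar collagen and proteoglycans that neurons and glia make little of. Fibroblasts of the pia and arachnoid also supply the underlying cortex with retinoic acid, insulin-like growth factor 2 and bone morphogenetic proteins, chiefly in development, and form a barrier to solutes. In a block of dissected cortex such RNA would come mainly from the surface and the vessel sheaths, but the cell source of the reads was not tested here. In bulk samples fewer cells of a type cannot be told apart from less RNA per cell.

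Values below are gene reads multiplied by a factor per sample (scaled read counts), where 1 read was worth between 0.831 and 1.61. They are not corrected for gene length. The libraries held 1992452 to 3565356 gene reads. Neuronal identity was clear in all 8, with 8 excitatory neuron markers summing to between 8550 and 13042 after conditioning and between 9007 and 12021 in context controls. Camk2a alone stood at 3953 to 6607 over all samples, and the sums do not show how single markers varied. Cux2 ran from 19.1 in fear conditioning replicate 3 to 251 in fear conditioning replicate 2. Tbr1 ran the other way, from 641 in fear conditioning replicate 2 to 1092 in fear conditioning replicate 3.

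Reads of the 35 genes made up a small and variable part of each library. After conditioning, 904 of 2306717 reads in replicate 1 were theirs, which is 0.0392% (exact 95% binomial interval 0.0367% to 0.0418%). The count was 1727 in replicate 2 (0.0720%, 0.0687% to 0.0755%), 481 in replicate 3 (0.0199%, 0.0182% to 0.0218%) and 1713 in replicate 4 (0.0513%, 0.0489% to 0.0538%). In context controls it was 2245 in replicate 1 (0.0630%, 0.0604% to 0.0656%), 1069 in replicate 2 (0.0459%, 0.0432% to 0.0488%), 3088 in replicate 3 (0.101%, 0.0971% to 0.104%) and 1465 in replicate 4 (0.0735%, 0.0698% to 0.0774%). The intervals cover counting error only. Fear conditioning replicate 3 had the lowest share and context control replicate 3 the highest, and the ranges of the groups overlapped.

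Promoter sequence is shown for the 2 genes with the smallest p, Coch and Gjb2, and for the collagen gene Col1a2, whose direction turned without the samples numbered 3. Of the 35 genes, 28 were in the RefSeq promoter table (build GRCm38.p6), with 37 start sites. Col1a1, Crabp2, Dcn, Lum, Mgp, Serping1 and Slc47a1 were not matched. Each sequence holds the 250 bases before the start, on the strand of the gene. Capitals mark 2 motifs, the GC box (GGGCGG) and the CCAAT box, each searched on both strands. Coch lies on the plus strand at chr12:51593091-51593340, Gjb2 on the minus strand at chr14:57104703-57104952, and Col1a2 on the plus strand at chr6:4505368-4505617.
Coch: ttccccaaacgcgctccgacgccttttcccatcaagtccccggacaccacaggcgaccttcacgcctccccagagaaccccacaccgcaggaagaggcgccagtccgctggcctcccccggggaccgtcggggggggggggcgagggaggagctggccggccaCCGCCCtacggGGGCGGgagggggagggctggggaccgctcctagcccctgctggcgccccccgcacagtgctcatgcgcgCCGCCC
Gjb2: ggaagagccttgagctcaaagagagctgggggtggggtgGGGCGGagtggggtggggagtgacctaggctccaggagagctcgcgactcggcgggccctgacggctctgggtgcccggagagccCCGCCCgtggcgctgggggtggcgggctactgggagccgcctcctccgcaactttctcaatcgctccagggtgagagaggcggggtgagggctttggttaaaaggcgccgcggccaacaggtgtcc
Col1a2: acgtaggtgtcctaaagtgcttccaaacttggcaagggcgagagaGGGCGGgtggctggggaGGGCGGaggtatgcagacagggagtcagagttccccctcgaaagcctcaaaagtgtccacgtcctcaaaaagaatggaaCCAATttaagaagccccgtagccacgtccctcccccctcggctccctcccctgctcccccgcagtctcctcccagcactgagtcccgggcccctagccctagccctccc

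The Coch window held 3 GC boxes, the Gjb2 window 2, and the Col1a2 window 2 with 1 CCAAT box. Over the start sites of the 35 genes, 18 of 37 windows held a GC box, against 32.7% of all 32851 windows in the table. The CCAAT box was in 9 of 37 (33.8% of all windows), a TATA box written as TATAAA in 3 of 37 (12.4%), and the forkhead motif TGTTTAC in 2 of 37 (3.17%). All were searched on both strands. Such matches describe letters in a window, not binding.

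No gene of the 35 passed the threshold between fear conditioning and context control. Of the 14704 genes tested with limma on log2(value + 1), 0% were called higher and 0% lower at an adjusted p of 0.05, and each of the 35 had an adjusted p of 0.9998. Before adjustment, limma gave 397 genes a p under 0.05, edgeR 385 and DESeq2 340, and each tool called 0 genes after adjustment. Of the 35, 31 lay lower and 4 higher after conditioning, where 48.2% of all tested genes lay lower and 51.8% higher. Their median log2 change was -0.56, against 0.0095 over all tested genes, of which 7.9% lay at or below the median of the 35. At an unadjusted p under 0.05, 3 lay lower (1.52% of all genes) and 0 higher (1.18% of all genes). In none of the 35 was every conditioned sample below every control (0.939% of all genes), or above every control (0.979%).

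The samples numbered 3 held most of the extreme values. Fear conditioning replicate 3 held the lowest value of all 8 samples for 24 of the 35 genes, as it did for 11.6% of all tested genes. Context control replicate 3 held the highest for 24 of the 35, as it did for 15% of all tested genes. Where samples tied, as at 0, the first in order was counted, with fear conditioning replicate 1 first. The shares over all genes therefore depend in part on that order. Among the 35, no count of either sample rested on a tie. In fear conditioning replicate 3, 31 genes were below their own mean, and in context control replicate 3 all 35 were above it. The median deviation from the gene's mean was -0.26, 0.30, -1.24 and -0.0068 on the log2 scale in fear conditioning replicates 1 to 4, and -0.092, -0.14, 1.02 and 0.34 in context control replicates 1 to 4. Over 12012 other genes averaging 10 or more, the same medians lay between -0.00082 and 0.041 in all 8 samples.

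Without replicate 3 of both groups, 22 of 34 genes lay lower and 12 higher, with a median log2 change of -0.053, where 49.2% of all genes lay lower. These samples were left out after seeing that they were the extremes, so a median nearer 0 follows from the choice and is given as a description. Without fear conditioning replicate 3 alone, 30 of 35 lay lower with a median of -0.22 (48.1% of all genes lower). Without context control replicate 3 alone, 29 of 35 lay lower with a median of -0.35 (50.2% of all genes lower). None of these fits called any gene, and in the order given limma put 209, 251 and 267 genes at an unadjusted p under 0.05.

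**Figure D1:**
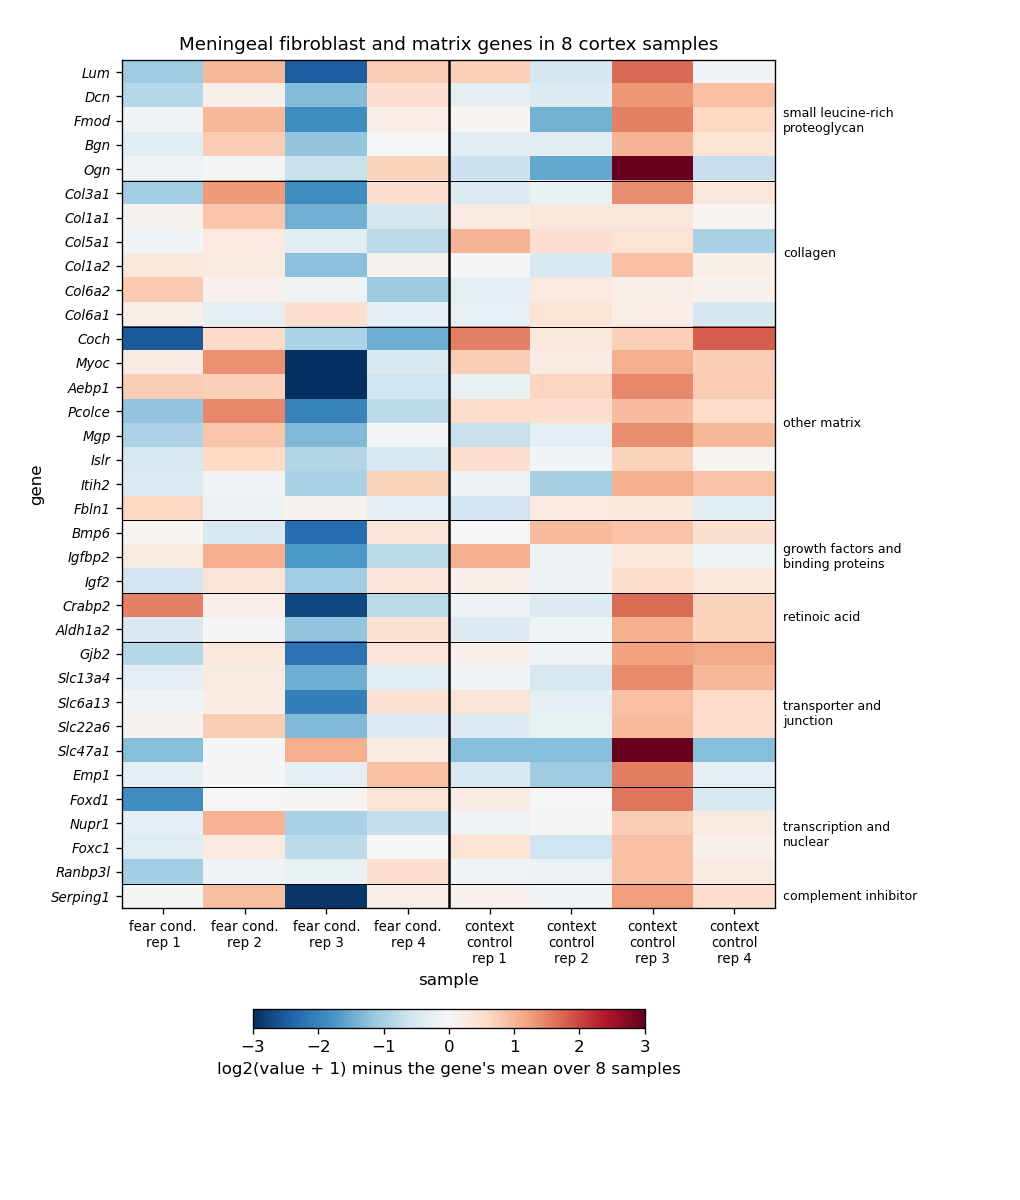
Each row is a gene, grouped by role, and each column a sample, with fear conditioning left of context control; colour gives log2(value + 1) minus the gene's mean over 8 samples, with the scale ending at 3 in both directions. Fear conditioning replicate 3 is below the mean in 31 genes and context control replicate 3 above it in all 35, while Coch follows another order.

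**Figure D2:**
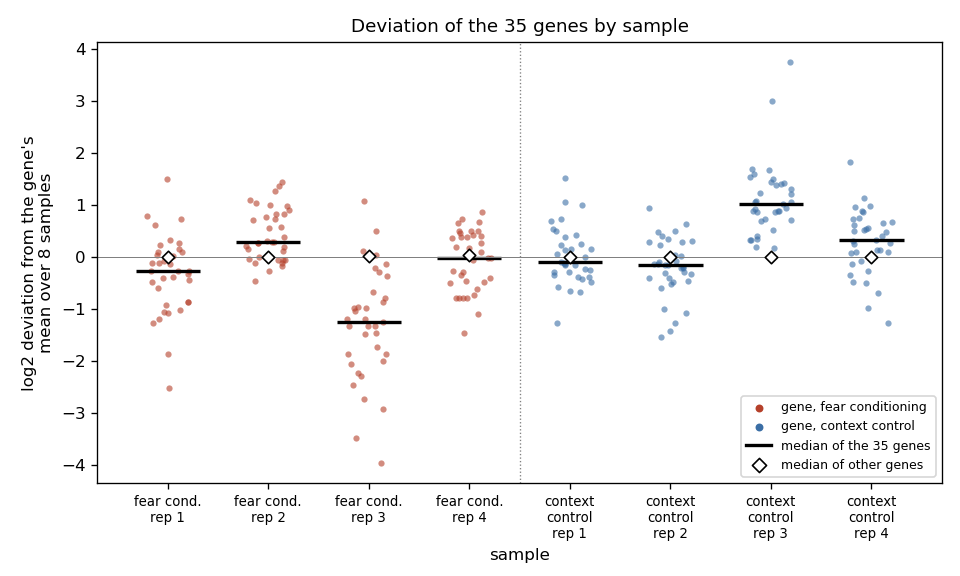
Points are the 35 genes in each sample, on the y axis as the log2 deviation from each gene's mean; bars give their median and diamonds the median of 12012 other genes. The bars stand at -1.24 in fear conditioning replicate 3 and 1.02 in context control replicate 3, and between -0.26 and 0.34 in the other 6 samples.

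Small leucine-rich proteoglycans bind collagen and set fibril width and spacing. Decorin, Dcn, was 41.4, 84.9, 30.1 and 108 in fear conditioning replicates 1 to 4, against 62.3, 57.7, 189.6 and 142 in context controls. The groups overlapped, since conditioned replicates 2 and 4 exceeded control replicates 1 and 2. The log2 change was -0.76 ± 0.46 (SE, n = 4 each, 95% confidence interval -1.75 to 0.24), and it was -0.14 without the number 3 samples.

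Lum, encoding lumican, read 12.4, 54.4, 4.10 and 46.1 after conditioning and 44.8, 18.8, 89.7 and 25.8 in controls. Its log2 change was -0.91 ± 0.71 (SE, 95% confidence interval -2.44 to 0.63), and 0.18 without the number 3 samples. Biglycan, Bgn, read 73.2, 157, 39.6 and 90.2 after conditioning and 71.4, 72.5, 186 and 121 in controls. For both genes the lowest sample was fear conditioning replicate 3 and the highest context control replicate 3. The Bgn log2 change was -0.37 ± 0.40 (SE, 95% confidence interval -1.24 to 0.50), and 0.24 without those samples.

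Fibromodulin, Fmod, ranged over 9.56 to 75.6 after conditioning and 13.4 to 108 in controls, with a log2 change of -0.39. Osteoglycin, Ogn, ranged over 8.20 to 22.1 after conditioning and 4.03 to 115 in controls. The value of 115 belonged to context control replicate 3 and the other controls stood at or below 8.31, and the log2 change of Ogn was -0.068 with that sample and 0.92 without it. On recovered reads of all 8 samples it was -1.27 in edgeR and -1.29 in DESeq2.

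The fibrillar collagens give tissue its tensile strength. Col1a1 and Col1a2 encode the chains of type I collagen and Col3a1 that of type III. Col1a1 read 18.0, 30.5, 5.47 and 11.5 after conditioning and 19.9, 21.5, 21.2 and 17.7 in controls. The controls lay close together, whereas the conditioned samples spread to both sides of them (log2 change -0.50 ± 0.46 SE, 95% confidence interval -1.499 to 0.49). Col1a2 read 95.3, 91.5, 31.4 and 81.5 after conditioning and 73.9, 55.1, 141 and 83.7 in controls. Outside the number 3 samples the conditioned values were level with or above the controls, and the log2 change was -0.27 with all samples and 0.35 without those. Col3a1 read 5.52, 31.8, 2.73 and 18.2 after conditioning and 9.14, 10.7, 34.3 and 16.1 in controls, with a log2 change of -0.56 and 0.34 in the same order.

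Context control replicate 3 was the highest sample for Col1a2 and Col3a1 among the 6 collagen genes. Col5a1, a chain that nucleates fibrils, was 6.37 ± 2.31 after conditioning and 9.96 ± 5.16 in controls (SD, n = 4 each), with its highest value in context control replicate 1. Col6a1 and Col6a2 encode chains of the beaded-filament type VI collagen. Col6a1 was 22.01 ± 6.11 after conditioning and 21.1 ± 6.25 in controls, and was highest in fear conditioning replicate 3. Col6a2 was 20.54 ± 10.7 after conditioning and 20.8 ± 3.58 in controls. Their log2 changes of 0.068 and -0.15 turned direction in some of the alternative settings.

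Among the other secreted matrix proteins, Coch had the largest change in size and the smallest p of the 35. Coch encodes cochlin, a protein of the extracellular matrix known best from the inner ear. It read 16.6, 147, 50.6 and 35.5 in fear conditioning replicates 1 to 4 and 287, 124, 163 and 354 in context control replicates 1 to 4. Conditioned replicates 1, 3 and 4 lay below every control, and conditioned replicate 2 lay above control replicate 2, so the groups overlapped. The means were 62.5 ± 58.2 after conditioning and 232 ± 107 in controls (SD, n = 4 each). The log2 change was -2.19 ± 0.53 (SE, 95% confidence interval -3.35 to -1.02, adjusted p = 0.9998).

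The Coch change was -2.36 without the number 3 samples. Over the 18 alternative settings it lay between -2.74 and -1.71, and its adjusted p was 0.363 or more. The adjusted p of 0.363 came from leaving out fear conditioning replicate 2.

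Myoc, the gene of the secreted glycoprotein myocilin, had the highest level of the 35 per kilobase of exon. It read 142, 313, 6.83 and 87.3 after conditioning and 202, 142, 257 and 201.2 in controls. The conditioned samples spanned both the highest and the lowest value of all 8, and fear conditioning replicate 3 held only 5 reads. The log2 change was -1.40 ± 0.82 (SE, 95% confidence interval -3.18 to 0.38), and -0.19 without the number 3 samples. On recovered reads of all 8 samples it was -0.56 in both edgeR and DESeq2.

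Aebp1, encoding a collagen-binding protein with a carboxypeptidase-like domain, read 42.8, 42.4, 1.37 and 16.3 after conditioning and 21.6, 40.3, 70.6 and 43.5 in controls. A single read was recovered in fear conditioning replicate 3, and the log2 change of -1.31 became -0.11 without the number 3 samples. Pcolce, whose product speeds the cleavage of procollagen ends, read 5.52, 39.8, 2.73 and 7.68 after conditioning and 20.8, 20.1, 27.2 and 20.9 in controls. Its 4 controls were close to each other, 3 conditioned samples were below all of them and fear conditioning replicate 2 was above them. The log2 change was -1.26 ± 0.61 (SE, 95% confidence interval -2.59 to 0.06), and -0.71 without the number 3 samples.

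Islr, a secreted protein gene with leucine-rich repeats, read 34.5, 73.0, 26.0 and 34.5 after conditioning and 68.9, 45.7, 78.7 and 51.5 in controls. Again 3 conditioned samples lay below all controls and replicate 2 among them (log2 change -0.61 ± 0.33 SE, 95% confidence interval -1.33 to 0.12). Mgp, encoding an inhibitor of calcification, ranged over 16.4 to 76.9 after conditioning and 26.6 to 114 in controls. Itih2, encoding a heavy chain that is joined to hyaluronan, ranged over 16.4 to 53.7 after conditioning and 16.1 to 70.6 in controls. Fbln1, the gene of the elastic-fibre protein fibulin-1, was 35.7 ± 10.9 after conditioning and 32.2 ± 10.1 in controls (SD, n = 4 each), and was the member with the highest log2 change, 0.15.

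**Figure D3:**
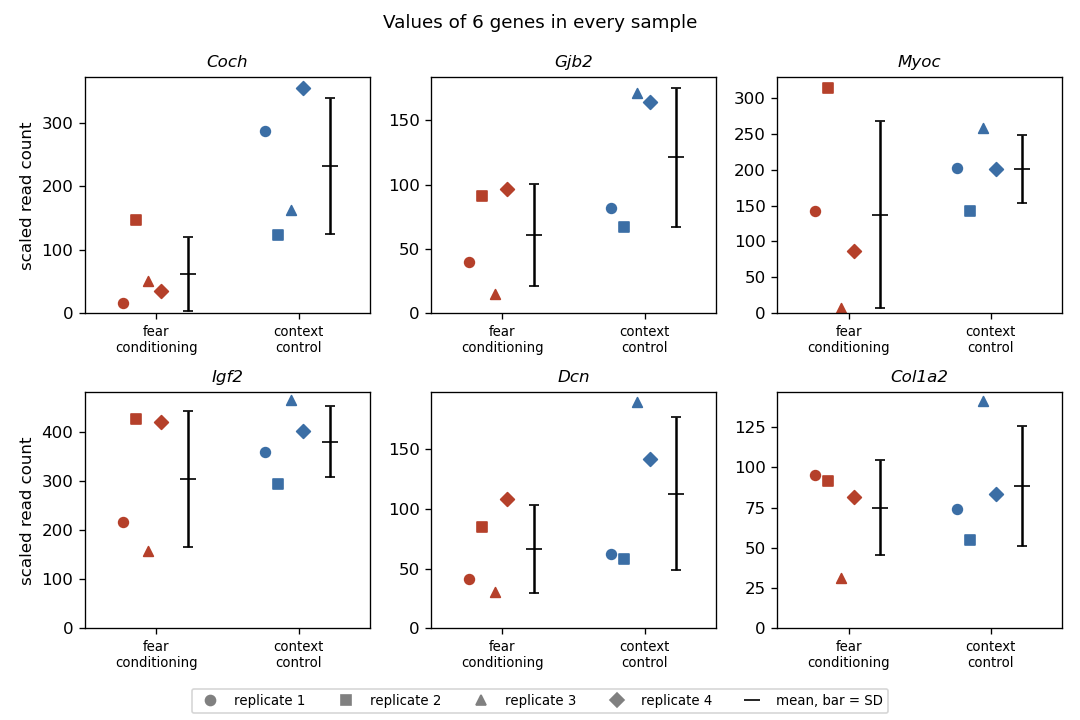
Scaled read counts of 6 of the genes are plotted for every sample, fear conditioning left of context control, with the replicate number as the symbol and mean ± SD beside the points (n = 4 per group). Triangles mark the samples numbered 3, which are low after conditioning and high in controls for Gjb2, Myoc, Igf2, Dcn and Col1a2; for Coch both lie inside the range of their group.

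Among the growth factors, Igf2, the imprinted gene of insulin-like growth factor 2, had the highest scaled read count of the 35. It read 215, 426, 157 and 419 after conditioning and 359.6, 293, 465 and 402 in controls. Conditioned replicates 2 and 4 stood among the controls and replicates 1 and 3 below them all. The log2 change was -0.42 ± 0.30 (SE, 95% confidence interval -1.07 to 0.22), and -0.046 without the number 3 samples. Igfbp2, which encodes a binding protein of these factors, read 47.0, 83.6, 10.9 and 22.1 after conditioning and 82.2, 34.9, 49.4 and 35.4 in controls. Its highest value was in fear conditioning replicate 2 and its lowest in fear conditioning replicate 3 (log2 change -0.57 ± 0.53 SE).

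Bmp6, a bone morphogenetic protein gene, read 24.9, 17.2, 4.10 and 31.7 after conditioning and 24.1, 47.0, 44.4 and 33.8 in controls. Every conditioned sample was below 3 of the 4 controls. Its log2 change was -1.15 ± 0.52 (SE, 95% confidence interval -2.28 to -0.02), and -0.48 without the number 3 samples.

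Fibroblasts of the meninges make retinoic acid with the enzyme encoded by Aldh1a2. It read 30.4, 39.8, 17.8 and 57.6 after conditioning and 31.6, 37.6, 87.7 and 66.0 in controls. The groups overlapped outside the number 3 samples, and the log2 change of -0.60 became -0.056 without them. Crabp2, encoding a carrier of retinoic acid to the nucleus, ranged over 0 to 18.0 after conditioning and 4.03 to 20.2 in controls. The 0 was in fear conditioning replicate 3, where a count of 0 allows up to 3 reads, a value of 4.10.

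Transporter genes mark the barrier layer. Slc13a4, a sodium-sulfate cotransporter gene, read 23.5, 34.5, 9.56 and 22.1 after conditioning and 26.6, 20.1, 77.6 and 56.3 in controls. Control replicates 3 and 4 were above every conditioned sample, while control replicates 1 and 2 lay among them. The log2 change was -0.91 ± 0.48 (SE, 95% confidence interval -1.95 to 0.13), and -0.25 without the number 3 samples. Slc6a13, encoding a transporter of GABA and taurine, read 29.0, 37.1, 6.83 and 43.2 after conditioning and 41.5, 25.5, 59.5 and 46.7 in controls. Its log2 change was -0.76 ± 0.50 (SE) with all samples and -0.030 without the number 3 samples.

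Gjb2, the gene of the gap junction protein connexin 26, had the second smallest p. It read 40.0, 91.5, 15.0 and 96.9 after conditioning and 82.2, 67.2, 171 and 164 in controls. Control replicates 3 and 4 were above every conditioned sample, and control replicates 1 and 2 lay between conditioned replicates 1 and 2. The means were 60.9 ± 39.9 after conditioning and 121 ± 54.2 in controls (SD, n = 4 each), with a log2 change of -1.19 ± 0.52 (SE, 95% confidence interval -2.32 to -0.06), and -0.44 without the number 3 samples.

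The organic anion transporter gene Slc22a6 ranged over 8.20 to 37.1 after conditioning and 16.6 to 43.4 in controls (log2 change -0.45). Slc47a1, a multidrug extrusion transporter gene, had 0, 1.33, 4.10 and 1.92 after conditioning and 0, 0, 31.3 and 0 in controls. All its control reads, 31 of them, came from replicate 3. Its log2 change was 0.026 in limma and -2.07 in edgeR, so its direction depends on the tool. Emp1, a gene of a small membrane protein, ranged over 19.1 to 44.1 after conditioning and 10.7 to 70.6 in controls, with 70.6 in context control replicate 3 and 19.3 or less in the other controls.

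Foxc1 encodes a forkhead transcription factor needed for the meninges to form in mice. It read 22.1, 35.8, 16.4 and 28.8 after conditioning and 39.0, 18.8, 54.5 and 32.2 in controls. The groups were interleaved apart from context control replicates 1 and 3 (log2 change -0.43 ± 0.38 SE, and -0.018 without the number 3 samples). Foxd1, another forkhead gene, read 0, 2.65, 2.73 and 3.84 after conditioning and 3.32, 2.69, 10.1 and 1.61 in controls. No library held more than 10 of its reads. The stress-responsive nuclear protein gene Nupr1 was 11.8 ± 9.13 after conditioning and 14.4 ± 4.15 in controls, and Ranbp3l, encoding a Ran-binding protein, 39.7 ± 16.7 after conditioning and 51.9 ± 19.5 in controls (SD, n = 4 each).

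Serping1, the gene of the C1 inhibitor of complement, read 27.6, 51.7, 2.73 and 30.7 after conditioning and 29.9, 25.5, 65.5 and 38.6 in controls. Only 2 reads were recovered in fear conditioning replicate 3. Its log2 change of -0.90 ± 0.67 (SE, 95% confidence interval -2.36 to 0.56) was 0.19 without the number 3 samples.

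**Figure D4:**
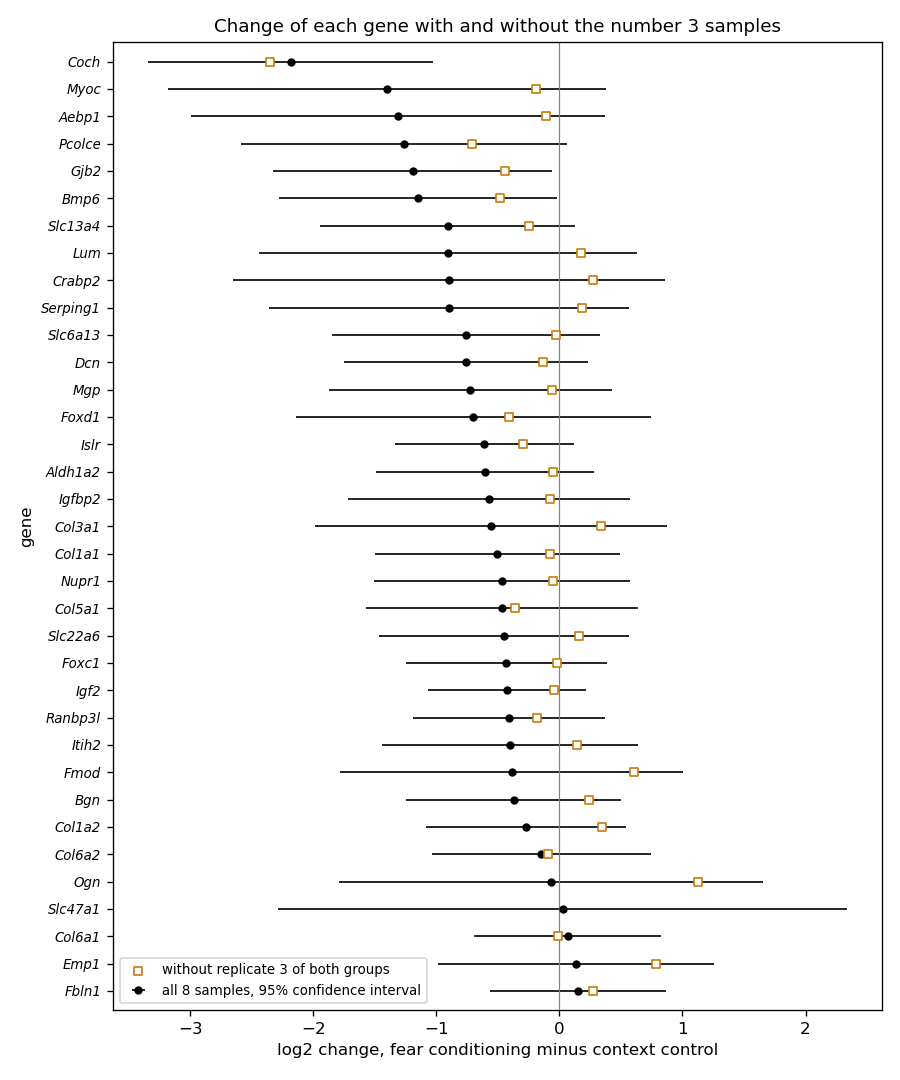
Black points give each gene's log2 change (fear conditioning minus context control) with its 95% confidence interval from limma, and open squares the change without replicate 3 of both groups, in which Slc47a1 was not tested. Of the squares, 22 lie below 0 and 12 above, with Coch at -2.36.

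On recovered reads of all 8 samples, edgeR gave values over 1.5 times from those of limma for several other members, with DESeq2 close to edgeR. The edgeR log2 change was -0.32 for Col1a1, -0.27 for Col3a1, -0.72 for Col5a1, 0.042 for Col6a1 and -0.035 for Col6a2. It was -0.35 for Igfbp2, -0.51 for Serping1, -0.78 for Aebp1, -0.70 for Pcolce and -0.54 for Crabp2, and it turned to -0.16 for Emp1.

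Divided by kilobases of exon in the GENCODE vM21 annotation, levels differed widely between members. Myoc stood highest (66.2 per kilobase after conditioning and 96.7 in controls), followed by Igf2 (53.2 and 66.4 in the same order of groups), Coch (20.8 and 77.4) and Mgp (33.0 and 54.9). The lowest was Foxd1 (0.455 after conditioning and 0.874 in controls). Which annotation the deposited counts used is not given in the sources used here. By GENCODE vM21, exons of Islr, Igf2 and Pcolce overlap protein-coding neighbours on their own strand, and exons of Igf2, Pcolce, Bmp6, Myoc and Col5a1 overlap genes on the other strand. Reads of such neighbours cannot be told apart here.

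For 22 of the 35 genes at least 1 library held fewer than 10 reads, and 95% limits stood 0.64 to 2.31 from the log2 change on either side, with a median of 1.104 against 0.62 over all tested genes.

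Related genes outside the 35 had no member past the threshold either. Among other small leucine-rich proteoglycan genes, 5 of 6 lay lower after conditioning (median log2 change -1.12, and -0.82 without the number 3 samples, -1.96 with a pseudocount of 0.1 and -0.60 with one of 5). The collagen-anchoring gene Prelp was 65.2 ± 22.3 after conditioning and 125 ± 28.6 in controls, with fear conditioning replicate 2 at 92.9 just above context control replicate 2 at 92.7. Epyc, found near the floor, was 1.61 ± 2.61 after conditioning and 5.37 ± 1.09 in controls. Other fibrillar and fibril-associated collagen genes were split, with 5 of 11 lower and 6 higher (median 0.012). The 2 with the smallest p are both among the lower ones, Col8a2 (2.06 ± 1.74 after conditioning, 6.39 ± 4.32 in controls) and Col27a1 (1.06 ± 1.37 and 2.82 ± 1.94 in the same order). Both stood near the floor after conditioning.

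Basement membrane genes lay lower in 13 of 17 (median -0.46, and -0.068 without the number 3 samples). Nid1, encoding the laminin linker nidogen, was 42.5 ± 21.1 after conditioning and 72.0 ± 17.6 in controls, and the laminin gene Lama2 was 59.4 ± 22.7 after conditioning and 83.4 ± 20.3 in controls. Genes of collagen processing and cross-linking lay lower in 15 of 20 (median -0.17, and -0.11 without those samples). In the lysyl oxidase family gene Loxl2 every conditioned value lay under the lowest control, as in 0.939% of all genes. It was 2.74 ± 1.06 after conditioning and 9.73 ± 4.35 in controls. Every conditioned value of Loxl2 was near the floor, at or below the value of 3 reads. The collagen chaperone gene Serpinh1 was 58.9 ± 20.9 after conditioning and 84.7 ± 8.24 in controls. Elastic-fibre and matricellular genes lay lower in 15 of 18 (median -0.37, and -0.063), among them Fn1 (198 ± 37.7 after conditioning, 289 ± 90.0 in controls) and Fbln5 (38.2 ± 21.7 and 75.0 ± 46.9 in the same order).

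In the signalling lists, other insulin-like growth factor genes were split 6 lower and 6 higher (median 0.012), with Igfbp5 at 929.6 ± 182 after conditioning and 1139.96 ± 93.9 in controls and Igfbp7 at 66.6 ± 17.7 after conditioning and 87.1 ± 3.55 in controls. Other retinoic acid genes lay lower in 10 of 15 (median -0.092), with the retinol uptake receptor gene Stra6 at 19.4 ± 9.27 after conditioning and 28.8 ± 6.83 in controls and Aldh1a1 at 56.5 ± 25.4 after conditioning and 109 ± 92.3 in controls. BMP and TGF-beta ligands, receptors and modulators lay lower in 18 of 22 (median -0.25, and -0.060 without the number 3 samples). Here the receptor gene Tgfbr2 was 78.2 ± 17.7 after conditioning and 116 ± 18.4 in controls, and the target gene Id3 was 32.4 ± 36.2 after conditioning and 42.3 ± 9.70 in controls.

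Other barrier and solute carrier genes lay lower in 15 of 18 (median -0.42, and -0.15 without the number 3 samples). The calcium-binding protein gene S100a6 was 38.0 ± 14.2 after conditioning and 70.3 ± 9.03 in controls, and it was 1 of 2 genes of the list, with the connexin 43 gene Gja1, in which all conditioned samples were lower than all controls (0.939% of all genes). The connexin 30 gene Gjb6 was 232 ± 34.1 after conditioning and 315 ± 52.7 in controls. Gja1 and Gjb6 are also among the astrocyte markers below. Other mesenchymal transcription factor genes lay lower in 8 of 11 (median -0.43, and -0.044). Tbx15 was 2.47 ± 2.46 after conditioning and 9.35 ± 5.51 in controls, and Twist1 0.480 ± 0.959 after conditioning and 2.81 ± 2.48 in controls. Both stood near the floor after conditioning. Further fibroblast markers lay lower in 11 of 13 (median -0.33, and -0.21), with Vim at 128 ± 56.1 after conditioning and 207 ± 72.0 in controls and Ly6a at 98.2 ± 27.3 after conditioning and 133 ± 16.4 in controls. All values in the related lists are mean ± SD, n = 4 each.

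**Figure D5:**
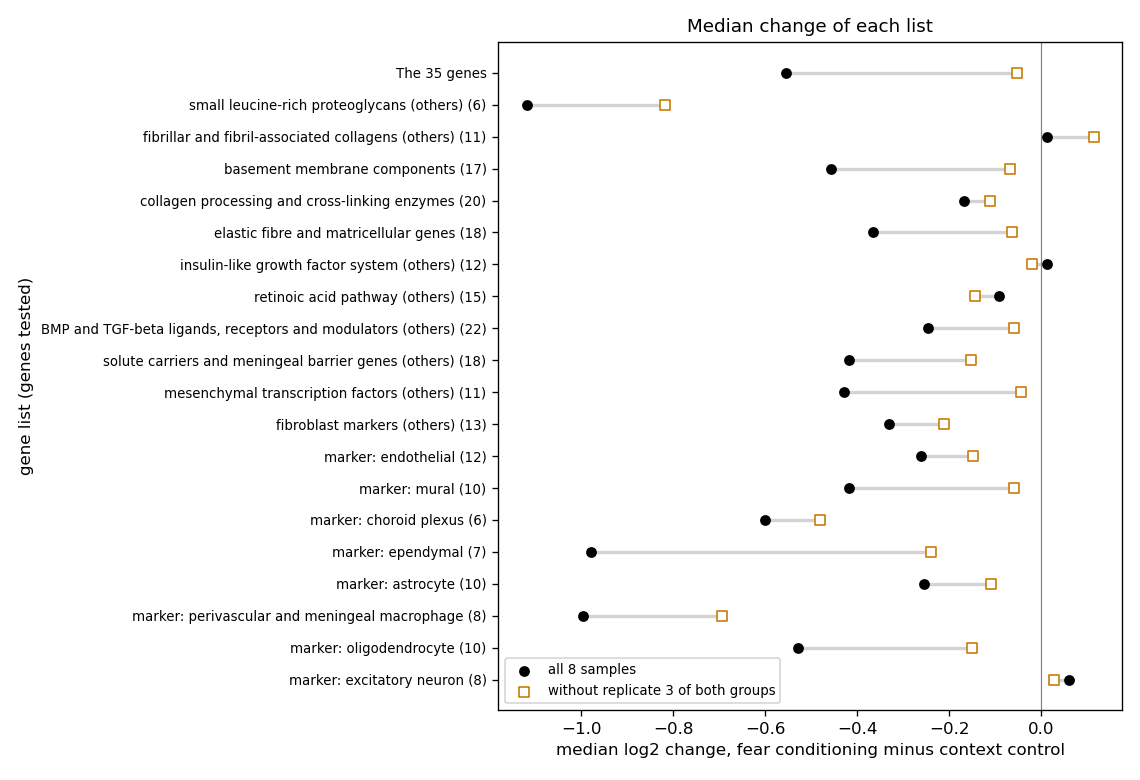
Each line is a gene list with the number of genes tested; black points give its median log2 change (fear conditioning minus context control) over all 8 samples and open squares the median without replicate 3 of both groups. The 35 genes stand at -0.56 and -0.053, and the macrophage markers at -0.996 and -0.69.

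Markers of other cell types at the brain surface and along vessels moved with the same samples in part. Macrophages of the meninges and vessel sheaths lay lower in 6 of 8 markers (median log2 change -0.996, and -0.69 without the number 3 samples). Their summed values were 31.4 to 130 after conditioning and 68.5 to 167 in controls. With ties given to the sample first in order, fear conditioning replicate 3 was counted lowest in 6 of 8 (11.6% of all genes). Of these, Lyve1, Ms4a7 and Cd209f were ties at 0 with context control replicate 2, and Cd209f also with fear conditioning replicate 4. In Cbr2 the sample tied at 0 with fear conditioning replicate 1 and was not counted. Context control replicate 3 was highest in only 2 of 8 (15% of all genes). Mural cells lay lower in 9 of 10 markers (median -0.42, sums 484 to 1102 after conditioning and 782 to 1178 in controls). Endothelial cells lay lower in 12 of 12 (median -0.26, sums 1052 to 1656 after conditioning and 1316 to 1945 in controls). Without the number 3 samples the medians were -0.061 for mural and -0.15 for endothelial markers. Fear conditioning replicate 3 was lowest in 5 of 10 mural and 5 of 12 endothelial markers, and tied at 0 with other samples in the mural gene Cnn1. Context control replicate 3 was highest in 3 of 10 mural and 9 of 12 endothelial markers. Choroid plexus markers lay lower in 6 of 6 tested of 11 (median -0.60, and -0.48 without the number 3 samples). Their sums were only 27.6 to 72.0 after conditioning and 44.8 to 107 in controls. Ependymal markers lay lower in 5 of 7, with sums of only 20.496 to 34.5 after conditioning and 16.1 to 65.5 in controls. Their median of -0.98 was -0.24 without the number 3 samples and turned to 0.14 when only genes averaging 10 or more were kept. By the same rule for ties, fear conditioning replicate 3 was counted lowest in 0 of 6 choroid plexus and 1 of 7 ependymal markers. In the choroid plexus gene Kcnj13 and the ependymal genes Ccdc153, Dynlrb2 and 1700009P17Rik it was also at 0, tied with other samples. These counts therefore depend on the order of the samples. Context control replicate 3 was highest in 3 of 6 choroid plexus and 4 of 7 ependymal markers.

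Oligodendrocyte markers lay lower in 10 of 10 (median -0.53, and -0.15 without the number 3 samples). They summed to 2905 to 4705 after conditioning and 2701 to 10798 in controls. Fear conditioning replicate 3 was lowest in 0 of them, and context control replicate 3 was highest in all 10. Astrocyte markers lay lower in 10 of 10 (median -0.25, and -0.11 without the number 3 samples). They summed to 16523 to 18410 after conditioning and 16284 to 22497 in controls, with Slc1a2 alone at 8279 to 12040 over all samples. Fear conditioning replicate 3 was lowest in 2 of the 10, and context control replicate 3 highest in 5. Excitatory neuron markers lay lower in 3 of 8 (median 0.060). Of 7 blood markers Hba-a1 and Hba-a2 were listed at 0 in every sample, and the erythroid gene Alas2, which alone was tested, was 10.7 ± 5.84 after conditioning and 24.8 ± 16.8 in controls (SD, n = 4 each). The part of these cell types in the values of the 35 genes was not tested.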

How the data were processed

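Total RNA of 8 cortex samples was sequenced, and the submitters' processing notes name TopHat and HTSeq without versions and the human build hg19, although samples and symbols are from mouse. The deposited file is named for FPKM, but its values are a signal made by multiplying whole gene reads by 1 number for each library: in each of the 8 columns, 100% of values above 0 were whole multiples of 1 step within 0.01 of a read. How the authors set the factor is not given in the sources used here. Library strandedness is not given either.

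The test was limma 3.58.1 (R 4.3.3) on log2(value + 1), two-sided, with a trend in the variance prior. It covered the 14704 genes averaging 1 or more, all 35 members among them, and p-values were adjusted over these by the Benjamini-Hochberg method at a threshold of 0.05. edgeR 4.0.16 and DESeq2 1.42.0 on recovered reads, other pseudocounts, filters and scalings, array weights and each sample left out were alternatives.

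Replicate numbers are shared by the groups. Deviations of same-numbered samples from their group means correlated at 0.40, 0.41, 0.16 and 0.20 over 12043 genes. Of the conditioned samples, 1 of 4 correlated best with its own number. Neither these values nor the labels show that equal numbers mark pairs. The main test used no pairing, and the replicate number entered as a block only in an alternative setting.

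The members and lists were chosen with earlier results of these data known. Every member is given; values in every sample are printed for the 5 highest, the 8 with the smallest p and 14 chosen by name, and of each other list the 2 genes with the smallest p, unnamed loci passed over. All 266 entries of the 20 lists matched a symbol.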

Additional observations from a re-analysis of the deposited data

Results flagged for a closer look

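In groups of 4, a sample was looked at again when its gap to the nearest other value as a part of the range of its group exceeded Dixon's 95% critical value. Of 70 groups (35 genes, fear conditioning and context control), 6 met this, where chance gives about 1 in 20. Of these, 4 were the highest value of context control replicate 3. They were Ogn at 115 (the other controls at 8.31 or less), Slc47a1 at 31.3 (the others at 0), Pcolce at 27.2 (the others at 20.9 or less) and Emp1 at 70.6 (the others at 19.3 or less). The others were Pcolce at 39.8 in fear conditioning replicate 2 (7.68 or less in the other conditioned samples) and Emp1 at 44.1 in fear conditioning replicate 4 (22.5 or less).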

How the results depend on the processing

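Under the 18 alternatives no member of the 35 was called; the one that leaves out both number 3 samples was chosen after seeing the data. Of 625 values of single members, 587 kept their direction and 38 turned, in 15 genes; 20 genes, all lower, never turned. The count of genes called over the whole table was 0 throughout, except 1 (Uevld) without fear conditioning replicate 4. With single samples left out, 29 to 35 members lay lower and the median lay between -0.87 and -0.22. The replicate number as a block called 0 genes (594 at an unadjusted p under 0.05) and left 31 members lower with a median of -0.56. The block changed no call.

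The direction of single genes turned as follows, on the log2 scale. Slc47a1 was -0.30 with a pseudocount of 5, -2.07 in edgeR and -2.11 in DESeq2. Emp1 was -0.16 in edgeR and -0.17 in DESeq2. Ogn was 0.030 after quantile normalization and 0.24 with array weights, where Col6a2 was 0.27. Without replicate 3 of both groups, Lum was 0.18, Col1a2 0.35, Col3a1 0.34, Col6a1 -0.011, Bgn 0.24, Ogn 1.13, Fmod 0.61, Slc22a6 0.16, Serping1 0.19, Crabp2 0.27 and Itih2 0.15. With single samples left out, the range was -0.47 to 0.098 for Col1a2, -0.089 to 0.22 for Col6a1, -0.44 to 0.19 for Col6a2, -0.59 to 0.92 for Ogn, -0.92 to 0.17 for Fmod, -0.39 to 1.28 for Slc47a1, -0.034 to 0.28 for Fbln1 and -0.20 to 0.67 for Emp1. Of 360 list medians under the alternatives, 9 moved by more than the SD of the list between samples. The ependymal median was -1.80 with a pseudocount of 0.1, -0.41 with one of 5 and 0.14 with a filter at 10. The astrocyte median was -0.15 without context control replicate 3. The cause was not tested. A filter at a mean of 10 left 31 of the 35 to test. Depth limits the genes with few reads.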
